A study of Mus musculus with 15 samples.

Results

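Negative-feedback and related target genes of Wnt/β-catenin signalling were followed in RNA-Seq libraries of mouse optic tissue grown from embryonic stem (ES) cells. The genes were taken by symbol: Axin2, Lef1, Tcf7, Nkd1, Sp5, Notum, Rnf43, Znrf3, Lgr5 and Apcdd1, 10 of the 23244 gene entries of the expression table of the series. Each symbol matched 1 entry, and all 10 passed the filter on low values, as did 13845 entries in all.

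The tissue came from EB5 Rx::GFP+/- mouse ES cells, a line in which GFP reports expression of the eye field gene Rx, listed in the table as Rax. All groups shared this line, a maintenance culture in 2i medium that itself held CHIR99201, with LIF and blasticidin, and reaggregation of 3000 cells per well by SFEBq, a serum-free floating culture. The 5 groups held 3 biological replicates each. Day 10 Rx::GFP+ tissue was the GFP+ epithelium cut from the aggregates with forceps on day 10, without cell sorting. Day 12 +Wnt and Day 15 +Wnt explants had been stimulated from day 10 with CHIR99201, an inhibitor of the kinase GSK3, at 3 µM for 24 h and at 1 µM from then on. Day 12 +Fgf and Day 15 +Fgf explants had been stimulated with 5 ng/ml human recombinant bFgf and 10% FBS, so the growth factor and the serum cannot be told apart. The labels call the +Fgf tissue neural retina and the +Wnt tissue retinal pigmented epithelium, and the study describes both as mostly, but not wholly, of that kind. Every Day 12 and Day 15 library analysed here came from stimulated tissue. After excision, the study cultured the explants in dishes of retinal maturation medium, whereas Day 10 tissue came straight from aggregates grown with Matrigel. In a comparison with Day 10, the stimulation, this change of culture and the additional days therefore cannot be told apart.

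In the Wnt/β-catenin pathway, a destruction complex of Axin, Apc, casein kinase and GSK3 marks β-catenin for breakdown. When a Wnt ligand or an inhibitor stops GSK3, β-catenin accumulates, enters the nucleus and activates genes together with the DNA-binding proteins of the Tcf/Lef family. Several of the activated genes encode inhibitors of the same pathway, so that a rise in signalling is followed by its own restraint, and such genes are widely read as a record of pathway activity. In the developing eye, Wnt/β-catenin signalling is known to promote the pigmented epithelium, and Fgf signalling the neural retina.

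Recovered read totals ranged from 12556998 to 16175450 per library, and 1 read was worth between 0.0620 and 0.0764 CPM (the authors' normalized value, scaled to a common library size). The summed level of 6 neural retina markers was 2061 to 2137 CPM in Day 15 +Fgf and 491 to 537 CPM in Day 15 +Wnt tissue. The summed level of 6 pigmented epithelium markers was 327 to 395 CPM in Day 15 +Fgf and 5195 to 6718 CPM in Day 15 +Wnt tissue. Markers of other cell types were also found. The 5 ganglion cell or neuron markers summed to 1124 to 1263 CPM in Day 15 +Fgf and 627 to 741 CPM in Day 15 +Wnt tissue. In Day 15 +Wnt tissue Atoh7 and Isl1 were under 1 CPM on average, so Pou4f2, Elavl4 and Tubb3 together made up nearly all of that sum. Their separate shares are not given here. By immunostaining, the study reported Pou4f2-expressing ganglion cells with Fgf but not with Wnt stimulation. Over all libraries, 5 neural crest markers summed to 14.9 to 30.5 CPM and 5 pluripotent cell markers to 3.32 to 43.6 CPM. Of the 5 primitive streak and mesoderm markers, T, Mixl1 and Mesp1 were under 1 CPM on average in every group, and Eomes made up most of their sum. In bulk tissue, fewer cells of a type and less RNA per cell cannot be told apart.

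The clearest contrast was between the stimulations. At Day 12, 8 of the 10 genes were higher in +Wnt than in +Fgf tissue and 1, Lgr5, was lower, by limma at an adjusted p (Benjamini-Hochberg) below 0.05, where 25.2% of all tested genes were higher and 26.3% lower. At Day 15, 8 were higher and 2, Lgr5 and Nkd1, were lower, against 30.6% higher and 38.0% lower among all tested genes. These counts, and those of rises with +Wnt and of the interaction below, include Rnf43. It passed the filter on low values only through its +Wnt libraries, the groups in which it was called higher. The median difference of the 10 genes on the log2(CPM + 0.3) scale was 1.14 at Day 12 and 2.10 at Day 15, beside medians of 0.00 and -0.05 over all tested genes. All log2 differences below are on this scale, on which the change of a gene with low CPM is understated, and all adjusted p-values are from limma, adjusted over all tested genes of a comparison.

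**Figure D1:**
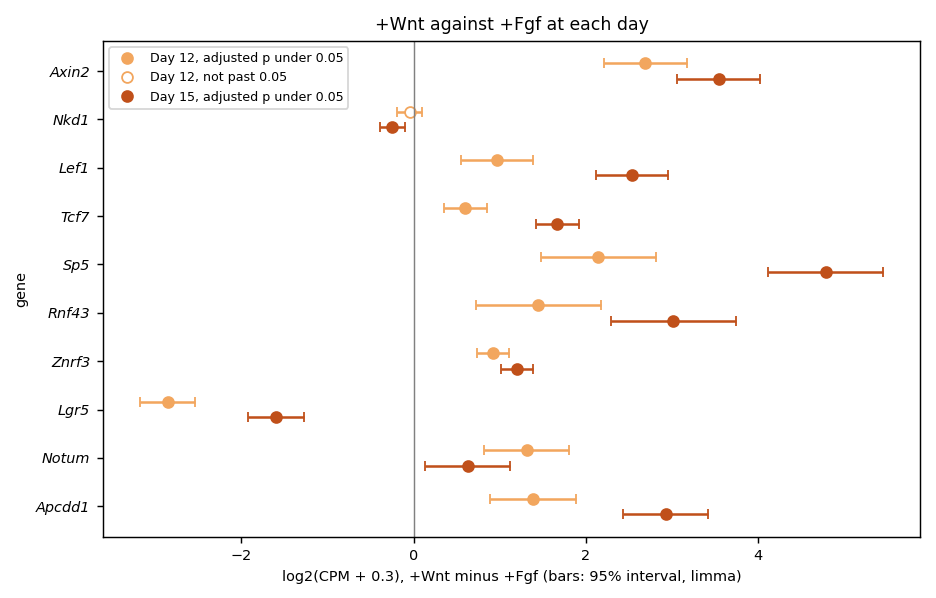
Difference between +Wnt and +Fgf tissue for each gene at Day 12 and Day 15, with the horizontal axis in log2(CPM + 0.3) and bars for 95% intervals from limma. Points right of 0 were higher in +Wnt tissue, and Sp5 had the largest difference at Day 15 (4.79), Lgr5 lay left of 0 at both days and Nkd1 lay close to 0.

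Against the starting tissue, the balance of rises and falls differed between the paths. From Day 10 to Day 12 +Wnt, 7 genes rose and 2 fell (30.6% and 29.6% of all tested genes), with a median of 0.75. From Day 10 to Day 12 +Fgf, 2 rose and 6 fell (27.9% and 27.8%), with a median of -0.45. Axin2, Sp5 and Znrf3 were called in opposite directions in the paths at Day 12. Nkd1 and Apcdd1 rose in both paths, and Tcf7 and Lgr5 fell in both. At Day 15, 7 genes were above and 2 below the Day 10 level in +Wnt tissue (39.6% and 40.2% of all tested genes), and 1 was above and 6 below it in +Fgf tissue (36.2% and 36.4%). Both paths are compared with the same Day 10 libraries, so their values are given side by side and are not independent. The median over all tested genes lay between -0.05 and 0.01 in each of these comparisons and in those between the stimulations.

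Between Day 12 and Day 15, the +Fgf path continued downwards: 7 of the 10 genes fell and 0 rose, where 29.9% of all tested genes fell and 27.2% rose, and the median was -0.74. In +Wnt tissue, 3 genes rose and 2 fell (32.5% and 35.5% of all tested genes), with a median of -0.09. The test of the difference between these changes (an interaction) called 7 genes with a more positive change in +Wnt than in +Fgf tissue and 0 with a more negative one, against 20.9% and 27.0% of all tested genes. RNA integrity (RIN), as the study's sample table gives it, was lowest in the Day 15 +Fgf libraries. With RIN as a covariate, 2 of the 7 decreases in +Fgf tissue (Lef1 and Tcf7) and 2 of the 7 interaction calls (Lgr5 and Tcf7) were past the threshold.

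**Figure D2:**
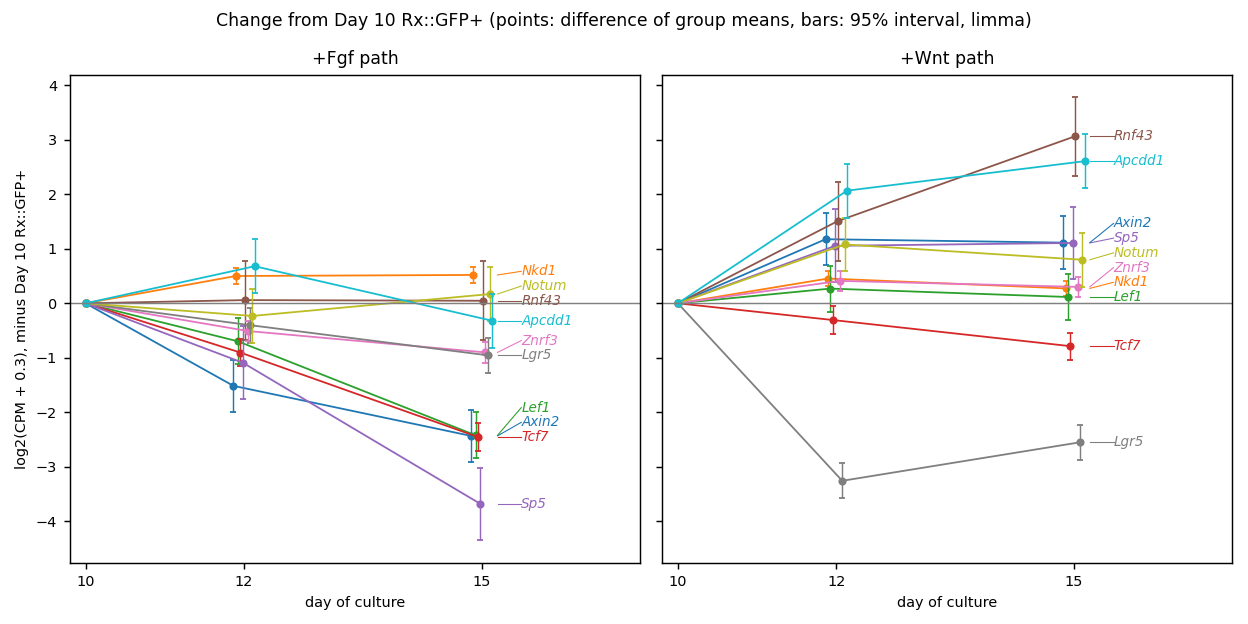
Log2(CPM + 0.3) minus the Day 10 Rx::GFP+ mean for each gene over days 10, 12 and 15 of culture, with the +Fgf path on the left, the +Wnt path on the right and bars for 95% intervals from limma. In +Fgf tissue Sp5, Tcf7, Lef1 and Axin2 ended between -3.68 and -2.42, and in +Wnt tissue Rnf43 (3.06) and Apcdd1 (2.61) ended highest and Lgr5 (-2.55) lowest.

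Axin2 (entry XLOC_003102) encodes a scaffold of the destruction complex and is one of the most used readouts of the pathway. Its level in the 3 Day 10 Rx::GFP+ libraries was 76.3, 82.9 and 85.2 CPM. In Day 12 +Wnt tissue it was 174, 180.3 and 199 CPM, and in Day 12 +Fgf tissue 31.2, 37.7 and 19.3 CPM. The 3 groups did not overlap, and Day 10 tissue lay between the stimulated ones. Axin2 rose 2.26-fold in mean CPM with +Wnt (log2 difference 1.18 ± 0.23 SE, adjusted p = 0.000318) and fell 2.77-fold with +Fgf (-1.51 ± 0.23, adjusted p = 3.43e-05).

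At Day 15, Axin2 was at 183, 182 and 164 CPM in +Wnt tissue and at 10.5, 13.0 and 23.7 CPM in +Fgf tissue, with +Fgf replicate 3 highest of its group. The mean level in +Wnt tissue was 11.2-fold that in +Fgf tissue (3.54 ± 0.23, adjusted p = 6.17e-10). From Day 12 to Day 15 it did not pass the test in +Wnt tissue (-0.06, 95% interval -0.55 to 0.42, adjusted p = 0.821) and fell in +Fgf tissue (-0.92 ± 0.23, adjusted p = 0.00251). The difference between these changes was 0.85 ± 0.32 (adjusted p = 0.0379). That call was lost when replicate 1 or 2 of any stimulated group was left out (8 libraries, adjusted p up to 0.103, without Day 15 +Fgf replicate 1), without a filter on low values (adjusted p = 0.0607) and with DESeq2 (adjusted p = 0.0802). With RIN as a covariate, the +Fgf decrease was -0.04 and the interaction -0.04. Axin2 lies on chromosome 11 at 108920349 to 108950783, plus strand (GRCm38, the assembly also called mm10), and shares 209 exon bases with Gm11670 on the other strand. The strand setting of the counting is not given in the sources used here, so reads of that stretch cannot be assigned to one of them.

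Nkd1 (entry XLOC_020087) encodes Naked cuticle homolog 1, an antagonist that binds Dishevelled, and it behaved unlike Axin2. It was at 63.1, 79.1 and 79.1 CPM in Day 10 tissue, at 105, 99.3 and 108 CPM in Day 12 +Fgf tissue and at 103, 98.6 and 100.3 CPM in Day 12 +Wnt tissue. Both stimulated groups lay above all Day 10 libraries and overlapped each other. The rise was 0.50 ± 0.07 with +Fgf (adjusted p = 1.23e-05) and 0.45 ± 0.07 with +Wnt (adjusted p = 2.63e-05). Between the stimulations at Day 12, Nkd1 differed by -0.05 (95% interval -0.19 to 0.10, adjusted p = 0.596).

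At Day 15, Nkd1 was at 104, 105 and 108 CPM in +Fgf tissue and at 90.9, 86.7 and 88.6 CPM in +Wnt tissue, without overlap. It was thus lower in +Wnt tissue by a small amount (-0.25 ± 0.07, adjusted p = 0.00409), a call lost with quantile normalization (adjusted p = 0.0567) and with RIN as a covariate. From Day 12 to Day 15 it fell in +Wnt tissue (-0.18 ± 0.07, adjusted p = 0.0262). That call was lost without Day 12 +Wnt replicate 1 or 3 or Day 15 +Wnt replicate 2 or 3, with adjusted p up to 0.0765, and in 4 of 10 other settings, with adjusted p up to 0.261. Nkd1 lies on chromosome 8 at 88521354 to 88594884, plus strand.

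**Figure D3:**
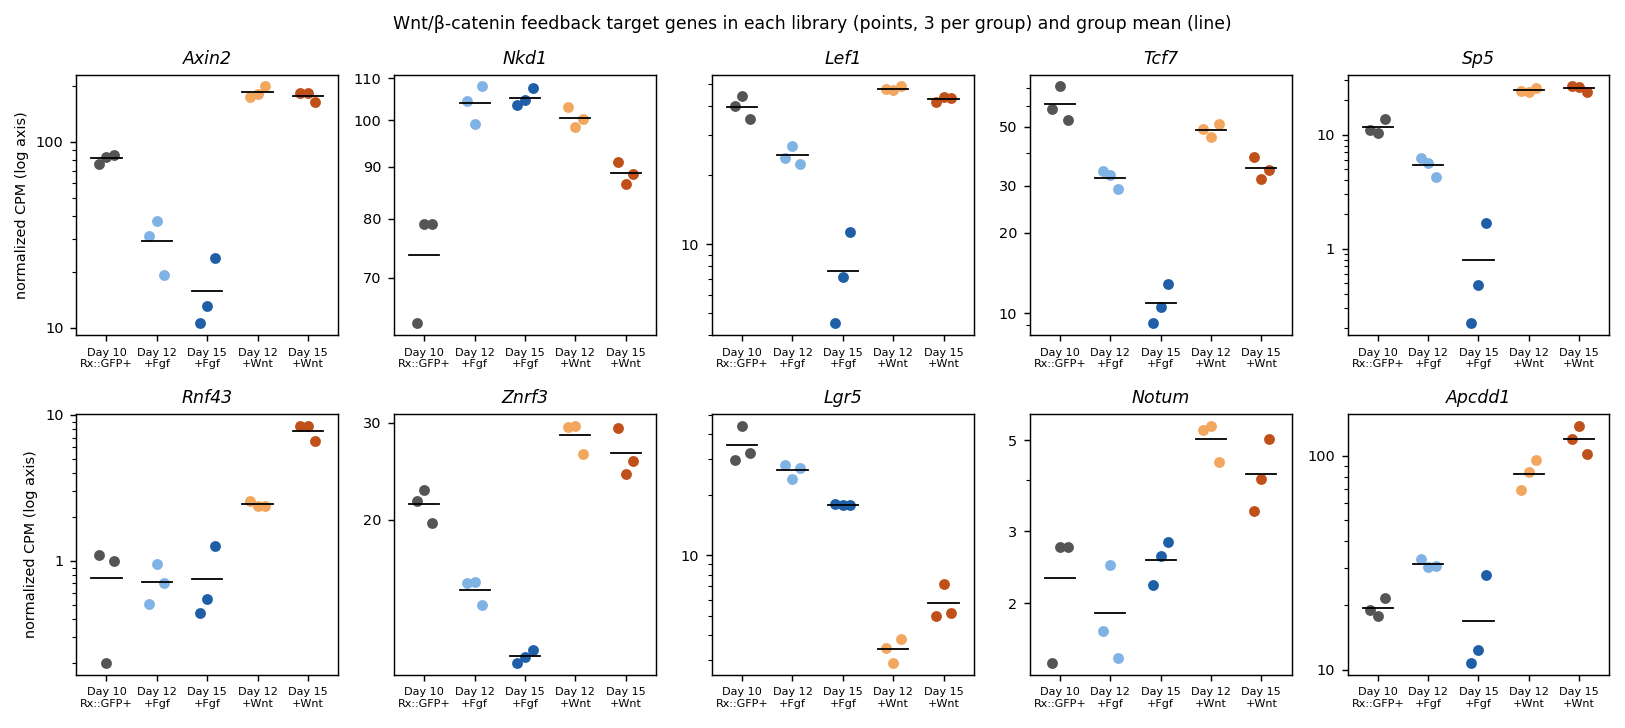
Normalized CPM of each gene in each of the 15 libraries (points) with the group mean (black line), on log axes that differ between panels. Axin2, Sp5 and Apcdd1 separated the +Wnt from the +Fgf libraries widely, Nkd1 stayed between 63.1 and 108 CPM, and Lgr5 was highest in Day 10 and lowest in Day 12 +Wnt tissue.

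Lef1, Tcf7 and Sp5 encode DNA-binding proteins: Lef1 and Tcf7 belong to the Tcf/Lef family that recruits β-catenin, and Sp5 is a zinc finger factor of the Sp/Klf family that acts with it. Lef1 (entry XLOC_013026) was at 40.0, 44.2 and 35.3 CPM in Day 10 tissue. In Day 12 +Wnt tissue it was at 47.6, 47.1 and 48.9 CPM, above every Day 10 library, yet the difference did not pass the test (0.27, 95% interval -0.15 to 0.69, adjusted p = 0.254). The spread behind that interval is pooled over all 5 groups and includes the Day 15 +Fgf libraries at 4.50, 7.14 and 11.3 CPM. In Day 12 +Fgf tissue Lef1 was at 23.8, 26.9 and 22.4 CPM, below every Day 10 library (-0.70 ± 0.20, adjusted p = 0.00714).

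Lef1 at Day 15 was at 41.9, 43.8 and 43.4 CPM in +Wnt tissue, inside the Day 10 range. In +Fgf tissue it had fallen to 4.50, 7.14 and 11.3 CPM (-1.72 ± 0.20 from Day 12, adjusted p = 1.63e-06). The +Wnt mean was 5.62-fold the +Fgf mean (2.54 ± 0.20, adjusted p = 7.60e-09). Measured from Day 10, the contrast at Day 15 thus came from a fall with +Fgf (-2.42 ± 0.20, adjusted p = 1.10e-08), while the value with +Wnt was 0.12 (95% interval -0.31 to 0.54). The +Wnt values from Day 10 changed sign with RIN as a covariate. Lef1 lies on chromosome 3 at 131110471 to 131224356, plus strand, and shares 1208 exon bases with Gm43352 on the other strand.

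Tcf7 (entry XLOC_003393) fell in both conditions, but by unequal amounts. It was at 58.1, 70.9 and 53.0 CPM in Day 10 tissue, at 34.2, 32.9 and 29.3 CPM in Day 12 +Fgf tissue and at 49.0, 45.9 and 51.2 CPM in Day 12 +Wnt tissue. The Day 12 +Wnt libraries all lay below the lowest Day 10 library, and the decrease of -0.31 ± 0.12 (adjusted p = 0.0339) was lost without Day 10 replicate 2 (-0.19, adjusted p = 0.189), without Day 12 +Wnt replicate 1 or 2, and with quantile normalization. At Day 15 it was at 9.14, 10.6 and 12.9 CPM in +Fgf tissue and at 38.5, 31.9 and 34.4 CPM in +Wnt tissue. From Day 12 it fell by 1.55 ± 0.12 with +Fgf (adjusted p = 1.41e-08) and by 0.48 ± 0.12 with +Wnt (adjusted p = 0.00177). The difference between these changes was 1.07 ± 0.17 (adjusted p = 6.24e-05). Tcf7 lies on chromosome 11 at 52252371 to 52283014, minus strand.

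Sp5 (entry XLOC_010904) had the widest range of the transcription factor genes. It was at 11.1, 10.4 and 13.8 CPM in Day 10 tissue, at 24.4, 23.6 and 25.6 CPM in Day 12 +Wnt tissue and at 6.27, 5.67 and 4.22 CPM in Day 12 +Fgf tissue. As with Axin2, Day 10 tissue lay between the stimulated groups and no group overlapped another. The rise with +Wnt was 1.05 ± 0.32 (adjusted p = 0.00863) and the fall with +Fgf -1.09 ± 0.32 (adjusted p = 0.00786). The rise was lost with RIN as a covariate (0.49, adjusted p = 0.275).

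By Day 15, Sp5 was at 26.6, 26.4 and 23.5 CPM in +Wnt tissue, and at 0.221, 0.481 and 1.70 CPM in +Fgf tissue, values that rest on 3, 7 and 24 reads. The mean in +Wnt tissue was 31.9-fold that in +Fgf tissue, the largest contrast among the 10 genes (4.79 ± 0.32, adjusted p = 8.66e-10). Without Day 15 +Fgf replicate 3, the library at 1.70 CPM, it was 72.6-fold (log2 difference 5.33). The fall in +Fgf tissue from Day 12 was -2.59 ± 0.32 (adjusted p = 2.90e-06), or -1.41 with RIN as a covariate (adjusted p = 0.0759). In +Wnt tissue the change from Day 12 was 0.05 (95% interval -0.62 to 0.72, adjusted p = 0.893).

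Because Axin2 and Sp5 moved together and Tcf/Lef proteins bind a short word of DNA, the stretches before their start sites were read from RefSeq (GRCm38.p6). The words searched on both strands, which form the core of the Tcf/Lef consensus, were CTTTGAA and its variant CTTTGAT as well as CTTTGTA and its variant CTTTGTT. Their matches do not overlap in these windows. RefSeq promoter windows of 300 bases (250 before and 50 after the start) were counted for 6 of the 10 genes, with 11 windows in all. No windows of Znrf3, Lgr5, Notum or Apcdd1 were counted, so whether a word stands before their starts was not described. Any windows of Apcdd1 were left out by choice before counting, so the counts for the listed genes are counts after that exclusion. A word stood in 2 of these 11, 1 of Sp5 and 1 of several start sites of Lef1, where 16.9% of all 32851 windows hold one. Among all windows, 14.8% hold one before the start. The 250 bases before the start of Sp5 (chr2:70474673-70474922, plus strand) and of Axin2 (chr11:108920099-108920348, plus strand) are shown 5′ to 3′ as the pair with the widest contrasts among these 6 genes, with any matching word in capitals.
Sp5: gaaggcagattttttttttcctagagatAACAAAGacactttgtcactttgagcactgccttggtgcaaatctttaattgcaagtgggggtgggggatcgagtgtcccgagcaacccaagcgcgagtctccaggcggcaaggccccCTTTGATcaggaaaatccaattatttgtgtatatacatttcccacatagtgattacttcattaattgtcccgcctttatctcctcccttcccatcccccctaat
Axin2: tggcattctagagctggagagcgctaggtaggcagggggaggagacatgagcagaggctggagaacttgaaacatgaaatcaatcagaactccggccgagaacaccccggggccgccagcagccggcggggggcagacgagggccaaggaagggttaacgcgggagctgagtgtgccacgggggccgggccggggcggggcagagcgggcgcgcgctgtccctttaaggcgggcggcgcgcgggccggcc
The Sp5 window holds AACAAAG, the reverse complement of CTTTGTT, at -222 to -216 and CTTTGAT at -104 to -98 before the start, and the Axin2 window holds none of the words. A match is a description of the letters and not of a bound site. Sp5 itself spans bases 70474923 to 70477729 of chromosome 2, plus strand.

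Rnf43 and Znrf3 encode transmembrane ubiquitin ligases that remove Frizzled receptors from the cell surface, and Lgr5 encodes a receptor for R-spondins, which restrain these ligases. The 3 genes did not move as a block. Rnf43 (entry XLOC_002900) was at 1.09, 0.201 and 0.993 CPM in Day 10 tissue, with 3 reads in the lowest library. It was at 2.58, 2.37 and 2.38 CPM in Day 12 +Wnt tissue and at 8.44, 8.35 and 6.66 CPM in Day 15 +Wnt tissue, so it rose in 2 steps without overlap between groups. The steps were 1.51 ± 0.34 (adjusted p = 0.00123) and 1.56 ± 0.34 (adjusted p = 0.000693). Rnf43 was the only gene of the 10 with a rise of more than 1 on this scale between Day 12 and Day 15 +Wnt.

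In +Fgf tissue, Rnf43 stayed at 0.507, 0.956 and 0.703 CPM at Day 12 and at 0.442, 0.549 and 1.27 CPM at Day 15, inside or near the Day 10 range. Its differences from Day 10 were 0.06 (95% interval -0.67 to 0.78) and 0.05 (-0.68 to 0.77), and neither passed the test. At Day 15 the +Wnt mean was 10.4-fold the +Fgf mean (3.02 ± 0.34, adjusted p = 6.93e-07), and 15.8-fold without Day 15 +Fgf replicate 3 (log2 difference 3.35). These values rest on 6 to 18 reads per library in Day 15 +Fgf and 95 to 136 reads in Day 15 +Wnt tissue. Rnf43 passed the filter on low values only through its +Wnt libraries, the groups in which it was called higher. Rnf43 lies on chromosome 11 at 87662722 to 87735539, plus strand.

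Znrf3 (entry XLOC_003240) followed Axin2 in direction but within a narrow range. It was at 21.7, 22.7 and 19.7 CPM in Day 10 tissue, at 29.5, 29.6 and 26.3 CPM in Day 12 +Wnt tissue and at 15.3, 15.4 and 14.0 CPM in Day 12 +Fgf tissue, with Day 10 again between the others. At Day 15 it was at 29.4, 24.2 and 25.6 CPM in +Wnt tissue and at 11.0, 11.3 and 11.6 CPM in +Fgf tissue. The contrast between the stimulations was 0.92 ± 0.09 at Day 12 (adjusted p = 1.91e-07) and 1.20 ± 0.09 at Day 15 (adjusted p = 3.15e-09). Their difference of 0.28 ± 0.12 did not pass the test (adjusted p = 0.0712), but passed it with quantile normalization, with edgeR and without Day 15 +Wnt replicate 2. The rise of 0.30 ± 0.09 from Day 10 to Day 15 +Wnt (adjusted p = 0.00487) was lost with quantile normalization (0.16, adjusted p = 0.12). Znrf3 lies on chromosome 11 at 5276324 to 5444847, minus strand.

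Lgr5 (entry XLOC_002234), a target gene best known as a marker of intestinal stem cells, went the opposite way. It was at 29.9, 44.1 and 32.2 CPM in Day 10 tissue and at 3.46, 2.92 and 3.84 CPM in Day 12 +Wnt tissue, a 10.4-fold fall in mean CPM (-3.26 ± 0.15, adjusted p = 1.10e-10). In Day 12 +Fgf tissue it was at 28.1, 24.0 and 27.2 CPM, below every Day 10 library but by less (-0.40 ± 0.15, adjusted p = 0.0339). The +Fgf decrease was lost without Day 10 replicate 2 (-0.23, adjusted p = 0.199), without Day 12 +Fgf replicate 2 or 3, and in 2 of 10 other settings, with adjusted p up to 0.0561.

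At Day 15, Lgr5 was at 18.1, 17.8 and 17.8 CPM in +Fgf tissue and at 4.96, 7.23 and 5.19 CPM in +Wnt tissue. It had fallen further with +Fgf (-0.55 ± 0.15 from Day 12, adjusted p = 0.00528) and risen with +Wnt (0.71 ± 0.15, adjusted p = 0.000585), and the difference between these changes was 1.26 ± 0.22 (adjusted p = 0.000149). The rise with +Wnt was lost with quantile normalization (0.09, adjusted p = 0.613), and the fall with +Fgf with RIN as a covariate (-0.30, adjusted p = 0.526). At both days Lgr5 was lower in +Wnt than in +Fgf tissue, 7.76-fold at Day 12 (-2.85 ± 0.15, adjusted p = 1.45e-10) and 3.09-fold at Day 15 (-1.60 ± 0.15, adjusted p = 8.34e-08). Lgr4, a related receptor for R-spondins that was named after its values were seen, was also lower in +Wnt tissue at Day 15 (-0.82, adjusted p = 1.15e-08). Lgr5 lies on chromosome 10 at 115450311 to 115587780, minus strand.

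Notum and Apcdd1 encode inhibitors that act outside the cell: Notum is a secreted enzyme that removes the lipid from Wnt proteins, and Apcdd1 is a membrane glycoprotein that binds Wnt and its co-receptor. Notum (entry XLOC_004069) was low throughout, with 21 to 84 reads per library. It was at 1.43, 2.74 and 2.75 CPM in Day 10 tissue, at 5.28, 5.43 and 4.44 CPM in Day 12 +Wnt tissue and at 1.71, 2.48 and 1.47 CPM in Day 12 +Fgf tissue. Only Day 12 +Wnt stood apart from the others at these days (1.08 ± 0.23 from Day 10, adjusted p = 0.000773). The value for +Fgf was -0.23 (95% interval -0.72 to 0.26, adjusted p = 0.412).

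At Day 15, Notum was at 3.35, 4.03 and 5.05 CPM in +Wnt tissue and at 2.21, 2.61 and 2.83 CPM in +Fgf tissue, without overlap (0.63 ± 0.23, adjusted p = 0.0237). This call was lost without Day 15 +Fgf replicate 1 (0.54, adjusted p = 0.0792) or Day 15 +Wnt replicate 3 (0.49, adjusted p = 0.11), with quantile normalization and with RIN as a covariate (0.05, adjusted p = 0.935). The rise of 0.80 ± 0.23 from Day 10 to Day 15 +Wnt turned to -0.07 with quantile normalization. Notum lies on chromosome 11 at 120653788 to 120661175, minus strand, and shares 918 exon bases with Notumos and Myadml2os on the other strand.

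Apcdd1 (entry XLOC_009524) rose at Day 12 in both conditions. It was at 18.9, 17.7 and 21.6 CPM in Day 10 tissue, at 32.8, 30.3 and 30.6 CPM in Day 12 +Fgf tissue and at 69.2, 83.7 and 95.3 CPM in Day 12 +Wnt tissue, with no overlap between the 3 groups. The rise was 2.07 ± 0.23 with +Wnt (adjusted p = 1.33e-06) and 0.68 ± 0.23 with +Fgf (adjusted p = 0.0209). The rise with +Fgf was lost without Day 10 replicate 1 or 2 or Day 12 +Fgf replicate 1 (adjusted p up to 0.069), with quantile normalization (0.55, adjusted p = 0.0625) and with RIN as a covariate (0.32, adjusted p = 0.461).

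At Day 15 the conditions parted: Apcdd1 was at 120.4, 139 and 102 CPM in +Wnt tissue and at 10.8, 12.4 and 27.6 CPM in +Fgf tissue, a 7.12-fold difference in mean CPM (2.93 ± 0.23, adjusted p = 9.39e-09). From Day 12 it fell 1.85-fold in mean CPM in +Fgf tissue (adjusted p = 0.00158), and by 0.40 on the log2 scale with RIN as a covariate (adjusted p = 0.567). In +Wnt tissue it rose by 0.54 ± 0.23, with an adjusted p of 0.04997 that lay just under the threshold. That call was lost when any of 10 libraries was left out, namely any Day 10 or Day 12 +Fgf library or replicate 1 or 2 of either +Wnt group (adjusted p up to 0.173, without Day 12 +Wnt replicate 1), and in 3 of 10 other settings (adjusted p up to 0.0768). Against Day 10, Day 15 +Fgf tissue was at -0.32 ± 0.23 (adjusted p = 0.227), and at -0.73 (adjusted p = 0.000127) without Day 15 +Fgf replicate 3, the library at 27.6 CPM. Apcdd1 lies on chromosome 18 at 62922231 to 62961179, plus strand.

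The interaction gives the genes whose contrast between the stimulations grew from Day 12 to Day 15. It was 2.64 ± 0.45 for Sp5 (adjusted p = 0.000134), 1.57 ± 0.28 for Lef1 (adjusted p = 0.000237), 1.57 ± 0.48 for Rnf43 (adjusted p = 0.0136) and 1.54 ± 0.33 for Apcdd1 (adjusted p = 0.00108), beside the values for Tcf7, Axin2 and Lgr5 given above. From Day 12 to Day 15, Rnf43 passed the test in +Wnt tissue alone, Sp5, Lef1 and Axin2 in +Fgf tissue alone, and Tcf7, Lgr5 and Apcdd1 in both. With RIN as a covariate the values were 1.44 for Sp5 (adjusted p = 0.103), 0.93 for Lef1 (adjusted p = 0.115), 1.51 for Rnf43 (adjusted p = 0.181) and 0.93 for Apcdd1 (adjusted p = 0.196), and the Rnf43 call was also lost with a pseudocount of 0.05 (adjusted p = 0.0515). Of the 7 genes, Lgr5 alone had a contrast below 0 that shrank. Notum (-0.68 ± 0.33, adjusted p = 0.0974) and Nkd1 (-0.20 ± 0.10, adjusted p = 0.097) did not pass, but Notum passed without Day 12 +Fgf replicate 2 (-0.87, adjusted p = 0.0401) and with quantile normalization, and Nkd1 without Day 10 replicate 1 (adjusted p = 0.0118).

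The Day 15 +Fgf libraries varied among themselves in one direction. Replicate 3 was the highest of the 3 for 9 of the 10 genes, by a median of 0.67 on the log2 scale over the mean of the others, and replicate 1 the lowest for 9 of the 10 (-0.49). Over all tested genes, replicate 3 was highest for 34.6% and its median deviation was 0.00. A list of 5 roof plate and cortical hem markers (Wnt1, Wnt3a, Lmx1a, Gdf7 and Msx1), which mark the dorsal forebrain midline where Wnt ligands are made, summed to 0.959, 3.16 and 9.05 CPM in replicates 1, 2 and 3. The summed pigmented epithelium markers were 327, 383 and 395 CPM in the same order. Ganglion cell or neuron markers fell in that order, at 1263, 1153 and 1124 CPM, and neural retina markers were at 2137, 2061 and 2063 CPM. Primitive streak and mesoderm markers were at 5.46, 26.4 and 25.9 CPM. Pluripotent cell markers were at 3.32, 10.9 and 6.08 CPM, and neural crest markers at 16.7, 16.9 and 19.2 CPM. By the study's sample table, replicate 3 also had the highest RIN of the 3. The part of RNA integrity or of cell types in this spread was not tested. The number of members that fell in Day 15 +Fgf from Day 12 was 7 with or without replicate 3.

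**Figure D4:**
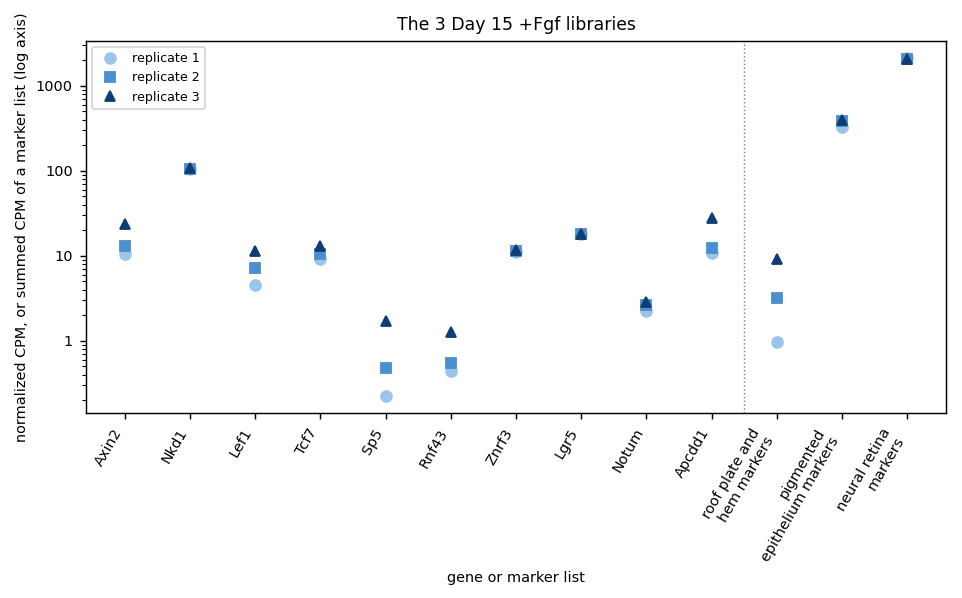
CPM of the 10 genes and summed CPM of 3 marker lists (right of the dotted line) in each Day 15 +Fgf library, on a log axis. Replicate 3 lay highest for 9 of the 10 genes and for the roof plate and hem markers (9.05 CPM, with 0.959 CPM in replicate 1), while the neural retina markers lay within 2061 to 2137 CPM.

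Across groups, the same roof plate and hem list summed to 29.1 to 37.3 CPM in Day 10, 7.16 to 14.5 CPM in Day 12 +Fgf, 44.6 to 64.0 CPM in Day 12 +Wnt and 42.4 to 53.8 CPM in Day 15 +Wnt tissue. As for Axin2 and Sp5, Day 10 tissue lay between the +Fgf and the +Wnt groups. None of the 5 markers was at 0 in all libraries of a group, Gdf7 was under 1 CPM on average in every group, and in Day 15 +Fgf tissue so were Wnt1 and Wnt3a. Wnt3a and Msx1 are themselves counted below among other target genes. Whether roof plate or hem cells were present, and their part in the levels of the 10 genes, was not tested.

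Levels between the genes are compared per length. Per kilobase of annotated exon (all exons of a gene merged), Axin2 led in Day 12 +Wnt tissue with 33.5 ± 2.29 CPM per kb (SD, n = 3), ahead of Nkd1 with 22.1 ± 0.495 and Tcf7 with 18.6 ± 1.03. In Day 15 +Fgf tissue, Nkd1 led with 23.1 ± 0.460 CPM per kb, Tcf7 followed with 4.14 ± 0.714 and Axin2 with 2.86 ± 1.27. Tcf7 and Axin2 there overlapped between libraries. Lgr5, Rnf43 and Notum held the last 3 places in Day 12 +Wnt tissue, at 0.332 ± 0.0449, 0.373 ± 0.0180 and 2.10 ± 0.223 CPM per kb, and Lgr5 and Rnf43 there did not differ beyond their spread. The order depends on the length used: with the RefSeq transcript in place of the merged exons (1888 in place of 12884 bases for Apcdd1), Apcdd1 was at 43.8 ± 6.92 CPM per kb in Day 12 +Wnt tissue, not beyond the spread from Axin2 at 43.3 ± 2.96, and led in Day 15 +Wnt tissue with 63.7 ± 9.66.

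Over the 15 libraries, pairs of the 10 genes ran closely together or apart, which describes 5 groups more than 15 independent points. On the log2 scale, Pearson's r was 0.98 for Lef1 and Sp5 and 0.97 for Axin2 and Znrf3, and -0.85 for Lgr5 and Notum. Among 11327 other genes with a mean of at least 5 CPM, those most like Axin2 were Zfp521 (r = 0.996), Lrrtm3 (0.987) and Sox6 (0.986). Those most like Lef1 were 2610018G03Rik (0.978), Fgfr2 (0.977) and Bmp5 (0.973), and those most like Notum were Akap17b (0.904), Cdk16 (0.903) and Paqr3 (0.887).

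The rest of the pathway was described by 5 lists of 82 genes. The shares of all tested genes to read their counts against are those given above: 25.2% higher and 26.3% lower in +Wnt than in +Fgf tissue at Day 12, 30.6% and 38.0% at Day 15, and 20.9% and 27.0% in the interaction. The interaction called 9 higher and 2 lower of 14 R-spondins and secreted antagonists (median 1.19). Of 18 other β-catenin targets it called 10 and 3 (median 1.17). It called 2 and 6 of 14 genes for β-catenin and cofactors (-0.21), and 2 and 8 of 16 receptor and Dishevelled genes (-0.22). For the destruction complex and its kinases, 5 of 11 genes were higher and 3 lower at Day 12 and 3 and 4 at Day 15, with medians of 0.02 at both days. The interaction test in limma called 0 of the 11, with unadjusted p-values from 0.0511 for Apc2 to 0.999 for Axin1, and the lowest adjusted p with edgeR was 0.050 for Apc2. The largest differences were those of Apc2, a neural relative of the scaffold Apc (0.39 at Day 12, adjusted p = 0.00742, and 0.71 at Day 15, adjusted p = 2.18e-05). Gsk3b, the target of CHIR99201, differed by 0.19 at Day 12 (adjusted p = 0.0111) and by 0.13 at Day 15 (adjusted p = 0.0541). Apc and Gsk3b differed at Day 12 by little more than the spread: the Gsk3b call was lost without Day 12 +Fgf replicate 1 or Day 12 +Wnt replicate 1, and those of Apc and Apc2 without Day 12 +Wnt replicate 3. Amer1, a scaffold of the complex, was lower (-0.32, adjusted p = 0.00125) and Btrc, which tags β-catenin for breakdown, higher (0.25, adjusted p = 0.00172) in +Wnt tissue at Day 15, and both calls were lost with RIN as a covariate.

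Of 14 genes for β-catenin and its nuclear cofactors, 2 were higher and 6 lower in +Wnt than in +Fgf tissue at Day 12 (25.2% and 26.3% of all tested genes), and 2 and 8 at Day 15 (30.6% and 38.0%), with medians of -0.12 and -0.26. Those named include the other Tcf family genes, which did not share the direction of Lef1 and Tcf7. Tcf7l1, often a repressor of target genes, was lower in +Wnt tissue at Day 12 (-0.60, adjusted p = 2.84e-07) and Day 15 (-0.83, adjusted p = 2.48e-09). Tcf7l2 was lower at Day 15 (-0.90, adjusted p = 0.000238), a call lost with RIN as a covariate. Among the Groucho co-repressors, Tle4 was higher at Day 12 (0.55, adjusted p = 8.11e-06), Tle3 lower at Day 12 (-0.38, adjusted p = 0.000372) and Tle1 lower at Day 15 (-0.77, adjusted p = 1.09e-06).

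Of 16 tested receptor and Dishevelled genes (Lgr6 was not tested), 9 were higher and 5 lower in +Wnt than in +Fgf tissue at Day 12 (25.2% and 26.3% of all tested genes), and 7 and 5 at Day 15 (30.6% and 38.0%), with medians of 0.24 and -0.02. Fzd5, the Frizzled receptor of the eye field, was at 244, 184 and 244 CPM in Day 12 +Fgf and at 23.1, 24.8 and 24.0 CPM in Day 12 +Wnt tissue (-3.20, adjusted p = 2.77e-12). At Day 15 its mean was 56.3-fold lower in +Wnt tissue (-5.74, adjusted p = 8.40e-16). Fzd4 (2.56 at Day 12, adjusted p = 2.81e-12, and 2.20 at Day 15, adjusted p = 5.29e-12) and Fzd9 (1.73, adjusted p = 1.79e-06, and 2.22, adjusted p = 4.27e-08) were higher.

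Among R-spondins and secreted antagonists, 14 of 18 genes were tested (not Dkk4, Sfrp4, Sfrp5 and Kremen2). At Day 12, 8 were higher and 3 lower in +Wnt than in +Fgf tissue (25.2% and 26.3% of all tested genes), and 10 and 3 at Day 15 (30.6% and 38.0%), with medians of 1.15 and 1.86. The R-spondins, which amplify Wnt signalling by drawing Rnf43 and Znrf3 off the membrane, were higher with +Wnt: Rspo3 by 3.17 at Day 12 (adjusted p = 0.000162), and Rspo1 by 5.45 (adjusted p = 7.16e-08) and Rspo2 by 4.78 (adjusted p = 2.45e-07) at Day 15. The Rspo3 difference was 2.53 without Day 12 +Fgf replicate 3. Those of Rspo1 and Rspo2 were 6.13 and 5.42 without Day 15 +Fgf replicate 3, and that of Rspo2 was 3.96 without Day 15 +Fgf replicate 1. In Day 15 +Fgf tissue Rspo1 was at 0.516, 1.24 and 4.31 CPM, lowest in replicate 1 and highest in replicate 3 as for 9 of the 10 feedback targets. Of the same list, Dkk3 (-5.08 at Day 12, adjusted p = 5.90e-17, and -4.61 at Day 15, adjusted p = 1.17e-16) and Sfrp2 (-4.34 at Day 12, adjusted p = 2.72e-17) were far lower with +Wnt. Dkk1, a target that blocks the Wnt co-receptor, was higher with +Wnt at Day 12 (1.42, adjusted p = 5.36e-06) and lower at Day 15 (-0.75, adjusted p = 0.0016), after 31.2, 28.5 and 34.1 CPM at Day 12 and 2.48, 2.68 and 3.58 CPM at Day 15 +Wnt. The Day 15 difference was lost with RIN as a covariate.

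Of 22 other genes known as β-catenin targets, 18 were tested (not T, Cdx1, Cdx2 and Fgf20). At Day 12, 5 were higher and 7 lower in +Wnt than in +Fgf tissue (25.2% and 26.3% of all tested genes), with a median of -0.19. At Day 15, 9 were higher and 4 lower (30.6% and 38.0%), with a median of 0.38. Wnt3a, a ligand of the dorsal midline, was higher at Day 12 (2.65, adjusted p = 5.33e-05) and Day 15 (4.30, adjusted p = 1.11e-07). Cd44, a cell adhesion receptor, was higher at Day 15 (3.55, adjusted p = 1.93e-12), and Irx3, an Iroquois transcription factor gene, at both days (1.27, adjusted p = 1.27e-05, and 0.64, adjusted p = 0.00381), the later call being lost with RIN as a covariate. Myc, which encodes a transcription factor of cell growth, was lower at Day 12 (-3.42, adjusted p = 1.16e-11), with 7.61, 7.45 and 7.61 CPM in +Wnt and 93.5, 81.9 and 76.4 CPM in +Fgf tissue, and Ccnd1, which encodes cyclin D1, was lower at Day 15 (-4.15, adjusted p = 2.11e-13). Fst, which encodes the activin antagonist follistatin, was lower at Day 12 (-2.79, adjusted p = 1.54e-09).

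**Figure D5:**
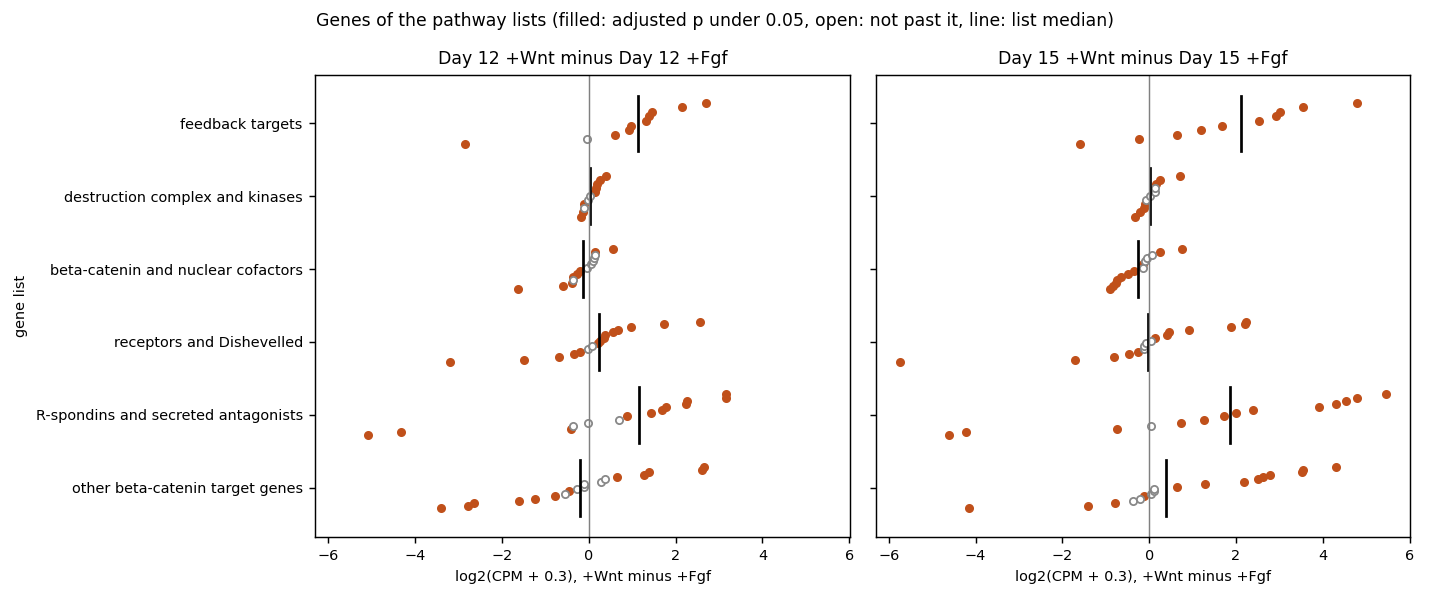
Difference between +Wnt and +Fgf tissue in log2(CPM + 0.3) for each tested gene of the feedback targets and the 5 pathway lists, at Day 12 (left) and Day 15 (right), with filled points past an adjusted p of 0.05, open points not past it, and lines for list medians. The feedback targets (medians 1.14 and 2.10) and the R-spondins and secreted antagonists (1.15 and 1.86) lay mostly right of 0, and the destruction complex lay close to 0.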

How the data were processed

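Poly(A) RNA was sequenced from 15 libraries, 3 per group, prepared with a stranded mRNA kit. Per the submitters' notes and the study's methods, the authors used bcl2fastq 1.8.4, FastQC 0.10.1, TopHat2 2.0.8b with the mouse mm10 assembly, Cufflinks 2.1.1 with Cuffdiff on a UCSC transcriptome, and edgeR 3.2.4. The strand setting of counting is not given in the sources used here. The deposited values are read counts that the authors normalized with edgeR to CPM, handled here as a normalized signal since their column totals differ between libraries. In each library 100% of the non-zero values were whole multiples of 1 read (tolerance 0.01 reads), so reads were recovered. Libraries held 12556998 to 16175450 reads, and the intervals given rest on the spread between replicates, pooled over all 5 groups.

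Groups were taken from the labels, which call the samples biological replicates. Of the 23244 entries, 13845 were tested, those that reached 1 CPM (recomputed from each column's own total) in 3 or more libraries. Values were analysed as log2(CPM + 0.3) with limma 3.58.1 (R 4.3.3) in 1 model of 5 group means with an intensity trend, for 9 comparisons, with Benjamini-Hochberg adjustment over all tested genes of a comparison and a threshold of 0.05. The scripts were tested on simulated data. The alternatives were median-of-ratios scaling, quantile normalization, pseudocounts of 0.05 and 1, no filter, a filter at 10 CPM, count tests on the recovered reads with edgeR 4.0.16 and DESeq2 1.42.0, RIN as a covariate, the replicate number as a block, and leaving out each of the 15 libraries. Python 3.11.15, NumPy 2.4.6, pandas 2.3.3 and matplotlib 3.10.9 were used for tables and plots.

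The 10 genes, the pathway lists and the marker lists were chosen with earlier results of these data known. All 10 genes were named in every comparison of interest. From each pathway list, the text names the 3 largest called differences between +Wnt and +Fgf at Day 12 and at Day 15 among genes whose higher group reached 5 CPM, and also Wnt3a, Dkk1 and Irx3. Lgr4 falls outside this rule. Gene positions are from the GENCODE annotation of GRCm38.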

Additional observations from a re-analysis of the deposited data

Results flagged for a closer look

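For 7 of the 10 genes the contrast between +Wnt and +Fgf tissue differed between Day 12 and Day 15 by the interaction test in limma. The difference, as Day 15 minus Day 12 of the contrast in log2(CPM + 0.3), was 2.64 for Sp5, 1.57 for Rnf43, 1.57 for Lef1, 1.54 for Apcdd1, 1.26 for Lgr5, 1.07 for Tcf7 and 0.85 for Axin2. Adjusted p-values lay between 6.24e-05 for Tcf7 and 0.0379 for Axin2. Of the 7, only Lgr5 and Tcf7 passed the threshold with RIN as a covariate, and RIN was lowest in the Day 15 +Fgf libraries, so the part of RNA integrity in these values was not tested apart from that of the group.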

How the results depend on the processing

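Of 90 differences of the 10 genes in 9 comparisons, 71 passed the threshold, and 49 of these did so in the same direction in every alternative that gave a value. The filter at 10 CPM left out Rnf43 and Notum. The number of genes past the threshold fell from 7899 to 3591 (Day 15 +Fgf minus Day 12 +Fgf) and from 6636 to 3842 (interaction) with RIN as a covariate, where 2 of the 10 genes were lower and 2 higher, respectively. Counts of the 10 genes changed to 1 lower in Day 15 +Wnt minus Day 12 +Wnt with median-of-ratios scaling, edgeR and DESeq2. They changed to 1 higher in Day 12 +Fgf minus Day 10 and 1 lower in Day 15 +Wnt minus Day 15 +Fgf both with quantile normalization and with RIN, and to 1 lower in Day 12 +Wnt minus Day 10 and 1 lower in the interaction with quantile normalization. With single libraries left out they ranged from 1 to 2 (Day 12 +Fgf minus Day 10, higher), 1 to 2 (Day 12 +Wnt minus Day 10, lower), 1 to 2 (Day 15 +Wnt minus Day 12 +Wnt, lower) and 0 to 1 (interaction, lower). Smaller changes of these counts, among them 7 to 5 higher in Day 15 +Wnt minus Day 10 with quantile normalization and with RIN, stayed within 1.5 times. So did those with single libraries left out, from 2 to 3 (Day 15 +Wnt minus Day 12 +Wnt), 7 to 8 (Day 15 +Wnt minus Day 15 +Fgf) and 6 to 7 (interaction) higher, and from 5 to 6 (Day 12 +Fgf minus Day 10) and 6 to 7 (Day 15 +Fgf minus Day 10) lower.

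The sign changed for 2 called differences: Notum in Day 15 +Wnt minus Day 10 with quantile normalization (-0.0741) and the Axin2 interaction with RIN (-0.0372). All other changes of sign were in differences that did not pass the test. With quantile normalization these were Rnf43 (-0.0014 in Day 12 +Fgf and -0.2644 in Day 15 +Fgf, both minus Day 10), Notum in Day 15 +Fgf minus Day 10 (-0.2607), Axin2 (0.1012) and Sp5 (-0.0104) in Day 15 +Wnt minus Day 12 +Wnt, and Nkd1 in Day 12 +Wnt minus Day 12 +Fgf (0.0083). Rnf43 in Day 12 +Fgf minus Day 10 was -0.0767 with edgeR and -0.0783 with DESeq2, and in Day 15 +Fgf minus Day 12 +Fgf 0.0883 with edgeR, 0.0829 with DESeq2, 0.0057 with a pseudocount of 1 and 0.0477 with RIN. Lef1 was -0.0334 (Day 12 +Wnt) and -0.2004 (Day 15 +Wnt) minus Day 10 with RIN. With single libraries left out, Rnf43 ranged from -0.4155 to 0.3213 (Day 12 +Fgf minus Day 10), from -0.4273 to 0.3095 (Day 15 +Fgf minus Day 10) and from -0.3402 to 0.2009 (Day 15 +Fgf minus Day 12 +Fgf), Notum from -0.102 to 0.3068 (Day 15 +Fgf minus Day 10) and Nkd1 from -0.0133 to 0.0475 (Day 15 +Fgf minus Day 12 +Fgf). Apart from RIN, which was included as a term, the cause of these changes was not tested.

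The replicate number as a block left the counts of the 10 genes as they were in each comparison (8 higher and 1 lower in Day 12 +Wnt minus Day 12 +Fgf, for example), and the number of genes past the threshold there was 7094. Libraries with the same number did not deviate together: over 30 such pairs, r of their deviations ranged from -0.253 to 0.245 (median -0.008), beside -0.334 to 0.292 for 60 pairs with different numbers. Depth limits Rnf43, Notum and Day 15 +Fgf Sp5 most, which rest on as few as 3, 21 and 3 reads.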
